A study of Mus musculus with 2 samples.

Results

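A set of 10 bone genes was examined: Runx2, Sp7, Mmp13, Ibsp, Spp1, Dmp1, Bglap and Bglap2 of the osteoblast lineage, and Ctsk and Acp5 of osteoclasts. All 10 were found by symbol and Ensembl identifier among the 43346 Ensembl genes of both gene tables. They were chosen with their expected counts, TPM (a length-corrected relative abundance), credibility bounds and ratio between the libraries known, so every ratio given for them is a description and carries no test. The study sequenced total RNA from the midbrain of B6NCrl mouse embryos at embryonic day 16.5, in 2 libraries that are biological replicates. Replicate 2 was made from the midbrains of 37 embryos, and replicate 1 from a pool whose number of embryos the labels do not give. Both pools held male and female embryos, came under the same donor identifier, were described as healthy, and carried no treatment or engineered allele. Each library was made from 10 ng of RNA longer than 200 nucleotides with added spike-in RNA.

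Expected counts, which are estimated reads per gene, summed to 36576263 in replicate 2 and 31830355 in replicate 1. The label of the tissue was checked against 10 genes of midbrain and of neurons. The highest were the neuronal genes Tubb3 (1743.9 TPM in replicate 2 and 1815.8 TPM in replicate 1), Stmn2 (1166.6 and 1116.0 TPM), Gad1 (124 and 110 TPM) and Slc17a6 (109 and 99.5 TPM). Otx2, a homeobox factor that patterns the midbrain, was named beside them for its regional role and was at 64.5 and 56.3 TPM. All 10 were at 1 TPM or more in both libraries, and none was past 2-fold between them. The largest ratios were those of Pax7 (3.70 and 1.96 TPM, 1.91-fold higher in replicate 2) and Th (24.0 and 15.1 TPM, 1.63-fold). With 1 library per pool, the intervals below cover counting error only, and differences between embryos, dissection and library making cannot be told apart. Nothing in the labels says whether the pools came from separate litters. In RNA from a whole tissue, fewer cells of a type and less RNA per cell cannot be told apart.

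Bone is built by osteoblasts and taken down by osteoclasts. Runx2 and then Sp7 (osterix) set the osteoblast fate. The maturing cell secretes matrix proteins, and once buried in mineral it becomes an osteocyte, which makes Dmp1. Osteoclasts are large cells of the macrophage lineage that acidify and digest bone under the cytokines Csf1 and Rankl. The midbrain makes no bone. Above and beside it in the late embryo the membrane bones of the skull form, and the cartilage of the skull base lies below. Several of these genes are also used elsewhere: Spp1 (osteopontin) by macrophages, microglia and some neurons, Ctsk by fibroblasts, and Acp5 by macrophages.

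Mmp13, Ibsp, Spp1, Dmp1 and Acp5 were more than 2-fold higher in replicate 2, Ctsk was just short of 2-fold, and the osteoblast fate factors were low in both libraries. Of all genes with enough counts, 1.47% were past 2-fold higher. Mmp13, a collagenase of osteoblasts and of hypertrophic cartilage, had 175 expected counts in replicate 2 and 2 in replicate 1. Ibsp (bone sialoprotein), an early mineral-binding protein of bone, had 327 and 31. Acp5, the tartrate-resistant acid phosphatase by which osteoclasts are stained, had 92 and 7. Together the 10 genes amounted to 69.2 TPM in replicate 2 and 17.0 TPM in replicate 1, of which Spp1 alone held 41.6 and 10.2 TPM. Of the 10 genes, 7 reached 1 TPM in replicate 2 and 2 in replicate 1, the pair in replicate 1 being Spp1 and Ctsk.

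**Figure D1:**
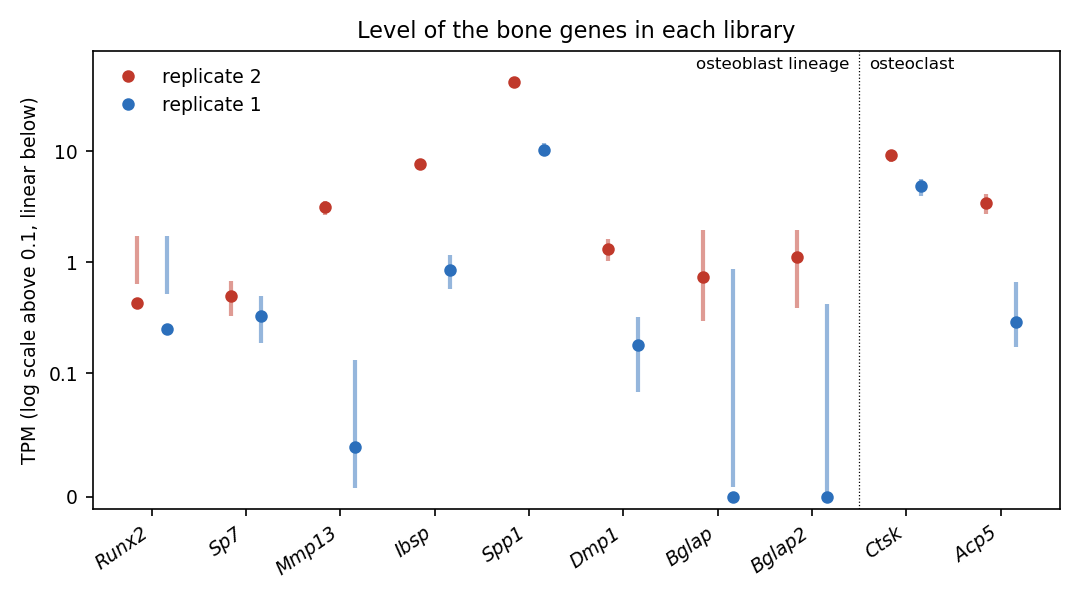
TPM of the 10 bone genes in replicate 2 (red, left) and replicate 1 (blue, right), with the deposited credibility interval as a bar; the axis is logarithmic above 0.1 and linear below. Mmp13 stood at 3.15 TPM in replicate 2 and 0.04 in replicate 1, while Runx2 and Sp7 stayed below 1 in both; the points of Runx2 lie under their own intervals.

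The fate factors come first in the order of the lineage. Runx2, the runt-domain factor without which no osteoblast forms, had 27.97 expected counts in replicate 2 and 14 in replicate 1, or 0.43 and 0.25 TPM. Its scaled ratio was log2 0.79 (replicate 2 minus replicate 1, here and below), with a 95% counting interval of -0.16 to 1.86. Sp7, the zinc finger factor that acts after Runx2, had 30 and 17 expected counts, or 0.50 and 0.33 TPM, and a ratio of log2 0.62 with an interval of -0.27 to 1.59. For both genes the interval included no difference and also included the 2-fold line, so a difference was not detectable at this depth and is not excluded either. The deposited credibility interval of Runx2 ran from 0.633 to 1.71 TPM in replicate 2 and from 0.520 to 1.73 TPM in replicate 1, above the deposited TPM of the same library. The posterior mean TPM of Runx2, 1.13 and 1.09, lay inside these intervals.

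Runx2 (ENSMUSG00000039153, chromosome 17, 44495987 to 44814797 of GRCm38, minus strand) starts from a distal promoter, which bone uses, and from a proximal promoter. The deposited transcript table assigned 3.24 expected counts in replicate 2 and 10.38 in replicate 1 to the 7 transcripts that start at the distal promoter. To the 6 transcripts of the proximal promoter it assigned 24.73 and 3.62. The leading form started at 44736176 in replicate 2, with 31.3% of the TPM of the gene, and at 44735634 in replicate 1, with 45.4%. In the posterior mean shares no Runx2 transcript held more than 18.4% in either library, so these few reads do not settle which promoter was used. Runx2 shares 519 exon bases with the antisense gene Runx2os1, which had 2.03 and 3 expected counts, and the sources used here do not say whether the counting used strand.

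Among the osteoblast genes, the matrix and matrix-cutting genes made up the larger differences. Of the osteoclast pair, Acp5, at log2 3.44, stood between Mmp13 and Ibsp. Mmp13 (ENSMUSG00000050578, chromosome 9, 7272514 to 7283331, plus strand) was at 3.15 TPM in replicate 2 and 0.04 TPM in replicate 1. The credibility intervals, 2.64 to 3.54 and 0.00665 to 0.131 TPM, lay far apart. Its scaled counts with nothing added differed 77.1-fold, with a counting interval of 21.02 to 642 that is this wide because replicate 1 held 2 reads. With 0.5 added to each count the ratio was log2 5.95. Among the 13267 protein-coding genes with a mean of 50 expected counts or more, Mmp13 had the highest ratio, and it reached that minimum through replicate 2 alone. Ibsp, with 31 expected counts in replicate 1, also reached it through replicate 2. Among all 17773 genes with a mean of 10 or more, Mmp13 had rank 8, Acp5 rank 21, Ibsp rank 23, Dmp1 rank 25 and Spp1 rank 39.

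Ibsp (ENSMUSG00000029306) was at 7.70 TPM in replicate 2 and 0.85 TPM in replicate 1, a ratio of log2 3.20 (interval 2.68 to 3.80), or 9.16-fold. Spp1 (ENSMUSG00000029304), an acidic phosphoprotein of bone matrix and of many other tissues, was at 41.6 and 10.2 TPM on 1178 and 247 expected counts, a ratio of log2 2.07 (1.87 to 2.27). Spp1 was the best counted of the 10 and had the narrowest interval. Dmp1 (ENSMUSG00000029307), the osteocyte phosphoprotein, had 76 and 9 expected counts, or 1.32 and 0.18 TPM, and a ratio of log2 2.83 (1.90 to 4.08). For Ibsp, Spp1 and Dmp1 the credibility intervals of TPM in replicate 2 lay wholly above those in replicate 1. The share of all genes with intervals that lie apart was not computed. Well-counted genes can show this at small ratios, as Slc17a6 did at log2 0.17 (104 to 109 and 94.4 to 98.7 TPM).

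Dmp1, Ibsp and Spp1 are neighbours. They lie on the plus strand of chromosome 5 at 104202613 to 104214102, 104299171 to 104311469 and 104435118 to 104441050, in a cluster of related phosphoprotein genes that spans 270 kb with Dspp of dentin at its near end. The cluster also holds Mepe, an osteocyte gene. Neither Dspp nor Mepe had a read in either library. The cluster was thus read from Dmp1, Ibsp and Spp1 but not from all of its genes.

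Osteocalcin, the calcium-binding protein of mature osteoblasts, is encoded in the mouse by Bglap and Bglap2, with the related Bglap3 beside them on the minus strand of chromosome 3. Bglap (88383501 to 88384464) had 5 expected counts in replicate 2 and 0 in replicate 1. Bglap2 (88377736 to 88378699) had 9 and 0, and Bglap3 had none in either. Against a floor of 3 counts in replicate 1, Bglap was at least 1.47-fold and Bglap2 at least 2.64-fold higher in replicate 2, a bound that leaves out the counting error of replicate 2. The 95% counting interval used for the other genes began at 0.807-fold for Bglap, so it included no difference, and at 1.74-fold for Bglap2. Reads of Bglap and Bglap2 can hardly be told apart. The coding sequences of Bglap and Bglap2, of 285 bases each, are 98.6% identical, and 80.5% of the 31-base words of the coding Bglap transcript also occur in Bglap2. Bglap3 is more distinct, as 38.9% of the words of its transcript of 717 bases occur in other genes. The stretch of 60 coding bases in which Bglap and Bglap2 differ most, from the start codon on, is given below from the GENCODE M21 transcripts, with capitals at the 3 positions that differ among the genes.
Bglap: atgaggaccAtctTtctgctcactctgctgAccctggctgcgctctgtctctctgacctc
Bglap2: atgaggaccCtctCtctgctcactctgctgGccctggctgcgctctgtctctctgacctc
Bglap3: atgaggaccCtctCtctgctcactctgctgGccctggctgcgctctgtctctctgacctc
The sum over the 3 genes does not depend on that split: 14 expected counts in replicate 2 and 0 in replicate 1, at least 4.11-fold against the same floor, with a counting interval that began lower, at 2.92-fold.

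Ctsk and Acp5, the osteoclast pair, differed between the pools by unequal amounts. Ctsk (ENSMUSG00000028111, chromosome 3, 95499256 to 95509362), the protease that digests bone collagen, had 274 expected counts in replicate 2 and 125 in replicate 1, or 9.19 and 4.88 TPM. Its ratio was log2 0.95 (0.64 to 1.27), just under the 2-fold line. Acp5 (ENSMUSG00000001348, chromosome 9, 22126727 to 22135711) was at 3.41 and 0.29 TPM, with a ratio of log2 3.44 (2.43 to 4.89). The counting intervals of Ctsk and Acp5 did not overlap. The interval of Ctsk also lay below those of Mmp13, Ibsp, Spp1 and Dmp1 and overlapped those of Runx2 and Sp7, while that of Acp5 overlapped Mmp13, Ibsp and Dmp1. The ratios of the osteoclast pair lay within the range of the osteoblast genes, log2 0.62 to 5.95.

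**Figure D2:**
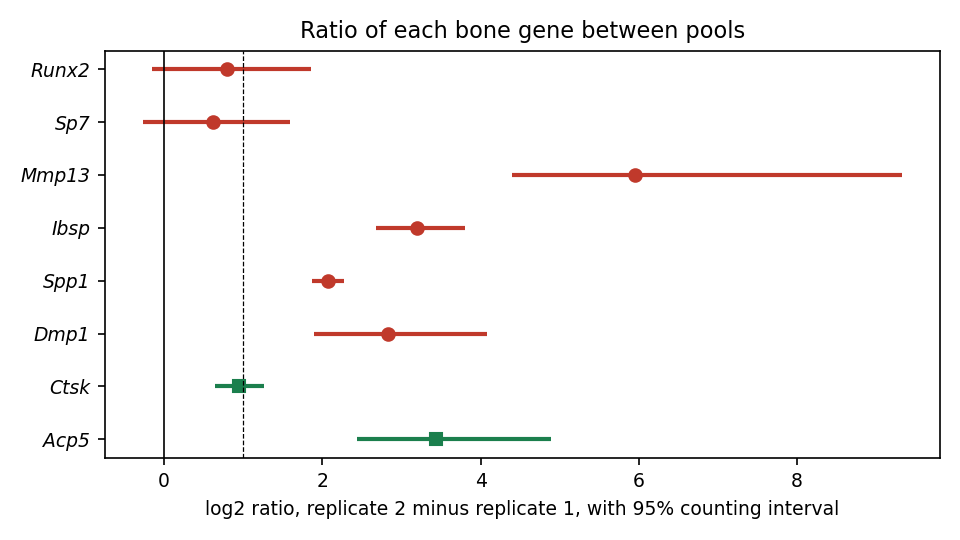
The log2 ratio of each bone gene between pools (replicate 2 minus replicate 1; points, 0.5 added to counts) with its 95% counting interval (bars, nothing added), for the 8 genes with a mean of 10 expected counts or more; the dashed line is 2-fold. Runx2 and Sp7 include 0, and the intervals of Ctsk, at 0.95, and Acp5, at 3.44, do not overlap.

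Of the 4 bone genes with several annotated transcripts, Runx2, Spp1, Acp5 and Bglap, only Spp1 had the same leading transcript in both libraries. Bglap had 0 counts in replicate 1 and so no leading transcript to compare there. The Spp1 form of 1410 bases held 95.9% of the TPM of Spp1 in replicate 2 and 93.7% in replicate 1. For Acp5, all 92 counts of replicate 2 were assigned to the transcript that starts at 22130598 and all 7 of replicate 1 to the one that starts upstream at 22135711. The posterior mean shares were less divided, at 75.5% in replicate 2 and 25.7% in replicate 1 for the downstream start, and 12.4% and 49.5% for the upstream start. The upstream transcript has 1407 bases in the deposited table and 1376 in the later annotation release. The coding form of Bglap, of 440 bases, held 72.2% of the TPM of Bglap in replicate 2.

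Ordered by TPM in replicate 2, Spp1 stood first and apart from the others. Ctsk and Ibsp followed at 9.19 and 7.70 TPM, and their credibility intervals (7.91 to 10.0 and 6.72 to 8.34) overlapped. The intervals of Acp5 and Mmp13 (2.73 to 4.09 and 2.64 to 3.54) overlapped too. Dmp1, Bglap2 and Bglap came next at 1.32, 1.12 and 0.73 TPM, and Sp7 and Runx2 were lowest at 0.50 and 0.43 TPM. The place of Runx2 depends on the estimate. By posterior mean TPM it was at 1.13 in replicate 2, beside Bglap2 at 1.13, Bglap at 1.09 and Sp7 at 0.50. The wide intervals of Bglap2 (0.387 to 1.96) and Bglap (0.296 to 1.96) overlapped those of Dmp1, Sp7 and Runx2. In replicate 1 the order was Spp1, Ctsk, Ibsp, Sp7, Acp5, Runx2, Dmp1 and Mmp13, with the osteocalcin genes at 0. Mmp13, Acp5 and Dmp1 stood above Sp7 in replicate 2, with intervals that did not overlap its own. In replicate 1 the interval of Mmp13 lay below that of Sp7 (0.189 to 0.494), while those of Acp5 (0.172 to 0.660) and Dmp1 (0.0844 to 0.320) overlapped it. The posterior mean TPM of that library put Acp5 (0.41) above Sp7 (0.34), and Runx2 (1.09) above Ibsp (0.85).

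Of the 10 genes, 8 had a mean of 10 expected counts or more over the libraries, and 5 of these were past 2-fold higher in replicate 2 (Mmp13, Acp5, Ibsp, Dmp1 and Spp1) and none lower. Among all 17773 genes at that minimum, 261 (1.47%) were past 2-fold higher and 236 (1.33%) lower. At a mean of 50 or more, where Mmp13, Ibsp, Spp1 and Ctsk remain, 0.354% of 14412 genes were past 2-fold higher and 0.291% lower. Mmp13, Dmp1 and Acp5 passed the minimum of 10 through replicate 2, since replicate 1 held under 10 counts of each. Mmp13 and Ibsp passed that of 50 in the same way. The median ratio was log2 2.45 over the 6 osteoblast genes that passed and 2.19 over the osteoclast pair, beside 0.01 over all genes tested. Since the genes were picked on these ratios, nothing is read from the counts or medians.

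The share of genes past 2-fold depends on depth. For means of 10 to 50, where Runx2, Sp7, Dmp1 and Acp5 lie, 6.25% of 3361 genes were past 2-fold higher in replicate 2. At 50 to 500, the range of Mmp13, Ibsp and Ctsk, it was 0.928% of 4956 genes. At 500 or more it was 0.0529% of 9456 genes, or 5 genes, among them Spp1. Scaling by spike-in totals in place of TMM moved the median of all genes by log2 -0.60 and left 71 genes higher and 1248 lower. It shifted all ratios alike, so the 5 bone genes at log2 2.07 or more had to stay past 2-fold.

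**Figure D3:**
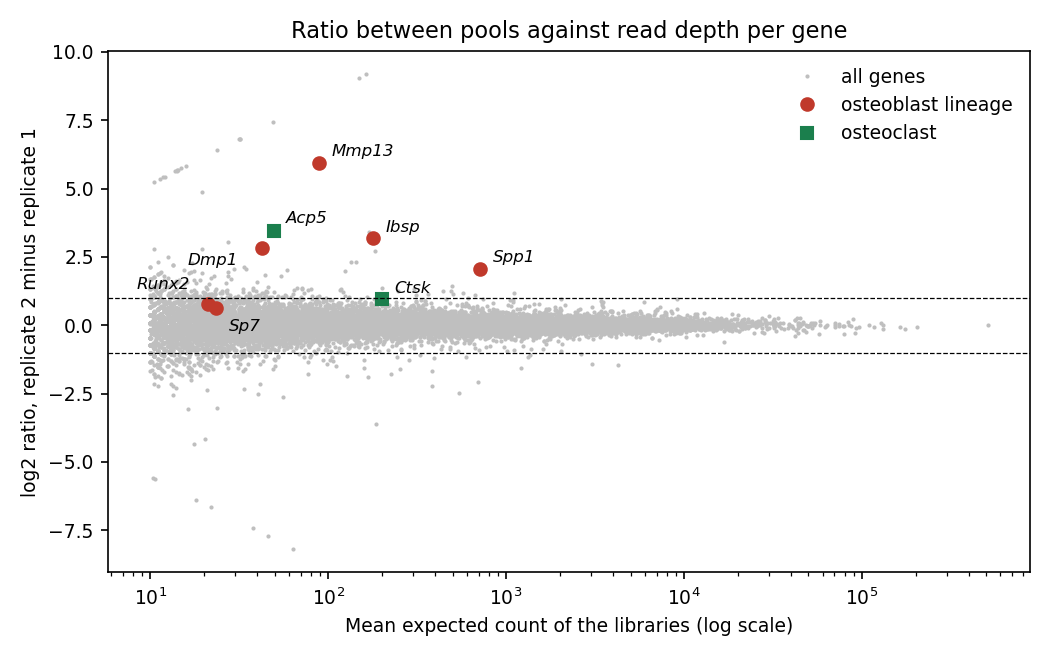
The log2 ratio between pools against the mean expected count (logarithmic axis) for all genes at 10 or more (grey), with bone genes of the osteoblast lineage (red circles) and of osteoclasts (green squares); dashed lines are 2-fold. The spread of all genes narrows with depth. Spp1, at a mean of 712.5 counts, was chosen on this ratio and is among the 5 genes at 500 or more that were past 2-fold higher.

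The genes most like Mmp13 in ratio were taken as the 12 protein-coding genes with the highest ratios, each at a mean of 50 expected counts or more. With 2 libraries, likeness means only the size of this ratio. Only Spp1, Aqp4 and Entpd2 had 50 or more expected counts in replicate 1, so the rest passed the minimum through replicate 2. Mmp13, Ibsp and Spp1 had ranks 1, 4 and 7 among the 12. The others included the hypothalamic peptide gene Oxt (12.7 and 0.79 TPM, log2 3.94), Nanp of sialic acid metabolism (11.2 and 1.26 TPM), Agt, the angiotensinogen of astrocytes and liver (8.41 and 1.30 TPM), and Gm14434 (8.34 and 3.20 TPM). Cldn10, a claudin, was at 5.96 and 1.28 TPM, and the astrocyte genes Aqp4 and Gpr37l1 were at 6.96 and 2.67 and at 2.29 and 0.90 TPM. Ppp1r1c and Entpd2 closed the list at log2 1.36 each.

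Promoter sequence is shown for Mmp13, Spp1, Dmp1 and Bglap because these 4 matrix genes carry the letters TGTGGT, the core that RUNX factors read, within 250 bases before an annotated start. Both strands were searched, so the match reads ACCACA on the other strand. The sequences are from RefSeq (GRCm38.p6), 5′ to 3′ on the strand of the gene and ending at the base before the RefSeq start, with the match in capitals.
Mmp13 (chr9:7272264-7272513, plus strand): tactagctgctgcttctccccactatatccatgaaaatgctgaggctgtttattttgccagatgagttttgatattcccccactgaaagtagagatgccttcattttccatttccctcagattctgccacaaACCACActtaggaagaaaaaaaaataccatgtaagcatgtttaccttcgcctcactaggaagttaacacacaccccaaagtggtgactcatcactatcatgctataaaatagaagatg
Spp1 (chr5:104434861-104435110, plus strand): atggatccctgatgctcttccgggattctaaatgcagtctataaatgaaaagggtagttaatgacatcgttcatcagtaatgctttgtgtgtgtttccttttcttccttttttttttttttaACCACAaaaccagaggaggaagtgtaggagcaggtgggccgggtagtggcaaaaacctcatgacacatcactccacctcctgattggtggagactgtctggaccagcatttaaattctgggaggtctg
Dmp1 (chr5:104202367-104202616, plus strand): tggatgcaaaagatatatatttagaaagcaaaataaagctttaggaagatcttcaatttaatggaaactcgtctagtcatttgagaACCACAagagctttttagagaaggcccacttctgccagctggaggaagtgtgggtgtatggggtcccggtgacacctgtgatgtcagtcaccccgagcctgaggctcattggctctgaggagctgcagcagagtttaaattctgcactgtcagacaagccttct
Bglap (chr3:88384467-88384716, minus strand): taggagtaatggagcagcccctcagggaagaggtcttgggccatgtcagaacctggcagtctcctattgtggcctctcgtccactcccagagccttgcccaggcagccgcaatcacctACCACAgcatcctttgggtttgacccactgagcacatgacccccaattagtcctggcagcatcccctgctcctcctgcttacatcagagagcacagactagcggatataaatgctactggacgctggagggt
The match began 118 bases before the start in Mmp13, 128 in Spp1, 164 in Dmp1 and 132 in Bglap. The window before the distal start of Runx2 also held a match, at 80 bases. In all, 5 of the 8 bone genes with a RefSeq window held a match, in 5 of their 12 windows, beside 14% of all 32851 windows. The windows of Ibsp, Ctsk and Acp5 held none, which says only that these letters are absent there, and Sp7 and Bglap2 were not matched. A match describes the letters and does not show binding.

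Further genes of osteoblasts and osteoclasts were mostly within 2-fold. Of 20 further osteoblast genes, 14 passed the minimum of 10, of which none was past 2-fold higher and 1, Dlx5, was lower, at 7.99 TPM in replicate 2 and 17.3 TPM in replicate 1. Dlx5 is also a gene of forebrain GABA neurons. The highest of the list were Sparc, a matrix protein of bone, glia and vessels (436 and 407 TPM), and the chains of type I collagen, Col1a1 (70.6 and 49.1 TPM, log2 0.58) and Col1a2 (65.8 and 53.2 TPM). Smpd3, a sphingomyelinase needed in bone and present in neurons, was at 60.9 and 58.5 TPM. Alpl, the phosphatase that starts mineralisation, was at 10.1 and 7.71 TPM. The list median was log2 0.16.

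Ifitm5, an osteoblast membrane protein, had 16 expected counts in replicate 2 and 1 in replicate 1, a 14.1-fold ratio with an interval of 2.19 to 591. It fell under the count minimum. Phex, an osteocyte gene like Dmp1, had 19 expected counts in each library, and Sost, another, had 1 and 3. Alpl, Ifitm5, Phex and Sost were singled out after their values were seen.

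Of 16 further osteoclast genes, 12 passed the minimum, none was past 2-fold either way, and the median was log2 0.05. The highest were Ckb, a creatine kinase of brain and osteoclasts (1205 and 1152 TPM), Ostm1 (33.3 and 36.9 TPM) and Clcn7 (29.1 and 31 TPM), which together form a lysosomal chloride exchanger, and Mmp9, a gelatinase (22.3 and 23.7 TPM). These genes are not private to osteoclasts. Tcirg1, the proton pump subunit of osteoclasts that other cells also make, had 418 expected counts in replicate 2 and 324 in replicate 1, or 10.6 and 9.86 TPM. The fusion genes Dcstamp and Ocstamp, the pump subunit gene Atp6v0d2 and Siglec15 had few reads: Dcstamp had 8 expected counts in replicate 2 and 2 in replicate 1, Atp6v0d2 8 and 2, Ocstamp 5 and 1, and Siglec15 1 and 0. These 4 are below the count minimum, and they and Tcirg1 were named after their values were seen. Of the signals that drive osteoclasts, Tnfsf11 (Rankl) had 2 and 3 expected counts and its receptor Tnfrsf11a 29 and 32, both also named after their values were seen. The receptor Csf1r, also of microglia, was at 11.6 and 10.5 TPM, its ligands Csf1 and Il34 at 5.20 and 5.10 and at 6.45 and 5.94 TPM, and Tnfrsf11b, the decoy receptor of Rankl, at 1.86 and 2.44 TPM.

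Lists of the cells that lie next to bone or share its genes were compared in the same way, and their part in the differences of the bone genes was not tested. Of the cartilage list 12 of 17 genes passed, and 4 were past 2-fold higher in replicate 2. These were Epyc, a proteoglycan (18 and 4 expected counts), Col10a1, the collagen of hypertrophic cartilage (25 and 7), Cnmd, chondromodulin (63 and 26), and Acan, aggrecan (27 and 11). The list median was log2 0.23. All 4 lie in the depth range in which 6.25% of genes were past this line. The only other genes of the list in that range, Comp (14 and 12) and Hapln1 (37 and 41), were within 2-fold. A difference of the list as a whole was not tested. The summed level of the list was 118.9 TPM in replicate 2 and 119.9 TPM in replicate 1, carried by Sox9 (38.3 and 35.9 TPM), Col9a3 (36.3 and 34.5 TPM), Col2a1 (18.8 and 29.5 TPM) and Col9a2 (14.1 and 11.2 TPM). Col2a1, the main collagen of cartilage, was thus lower in replicate 2, at log2 -0.56. No gene of the list was at 0 in either library. Matn1, a matrilin of cartilage under the count minimum, had 10 and 1 expected counts, and Ihh, a signal of prehypertrophic cartilage, had 7 and 12; both were named after their values were seen.

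The 12 genes of meninges and fibroblasts all passed and none was past 2-fold, with a median of log2 -0.04 and sums of 324 TPM in replicate 2 and 339 TPM in replicate 1. Col3a1, a fibrous collagen, was at 94.5 and 104.6 TPM, Igf2 at 72.8 and 75.9 TPM, Dcn (decorin) at 34.3 and 39.9 TPM, and Crabp2, which binds retinoic acid, at 37.0 and 35.9 TPM. Macrophage and microglia genes, which could carry Spp1, Ctsk and Acp5, summed to 155 and 124 TPM. All 15 passed, 12 had a ratio above 0, and 1 was past 2-fold, the integrin gene Itgax with 15 and 5 expected counts. The counting interval of Itgax, log2 -0.13 to 3.22, included no difference. Its mean of 10 lies in the depth range in which 6.25% of all genes were past 2-fold higher. C1qb was at 34.0 and 24.8 TPM, C1qa at 21.9 and 19.4 TPM, Tyrobp at 19.4 and 12.9 TPM and C1qc at 17.3 and 11.8 TPM. The ratios of the list ran from log2 -0.41 to 1.31 with a median of 0.22, beside 0.01 over all genes tested.

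Myeloid genes of bone marrow were low, at a sum of 23.1 TPM in replicate 2 and 18.7 TPM in replicate 1, of which Prtn3 held 10.6 and 10.5 TPM. The granule genes S100a8 (6.02 and 4.61 TPM), S100a9 (3.82 and 1.96 TPM) and Ngp (1.27 and 0.71 TPM) were below 2-fold. All 5 genes that passed had a ratio above 0, with a median of log2 0.84, the highest of the comparison lists, beside 0.01 over all genes tested. The median was that of Ngp, whose counting interval, log2 -0.099 to 1.90, included no difference. Of the 5 genes, 1 was past 2-fold, Ltf with 33 and 13 expected counts and an interval of log2 0.20 to 2.21. Ltf lies in the depth range in which 6.25% of all genes were past this line. Under the minimum, Elane had 0 counts in replicate 2 and 2 in replicate 1, Mpo had 3 and 8, and Camp had 8 and 3. Skeletal muscle genes summed to 14.5 and 13.5 TPM with none of 6 past 2-fold and a median of log2 0.35. Acta1 was at 8.73 and 7.62 TPM, Actn3 at 2.04 and 1.67 TPM, Mylpf at 1.53 and 2.62 TPM and Tnnt3 at 1.30 and 0.76 TPM.

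**Figure D4:**
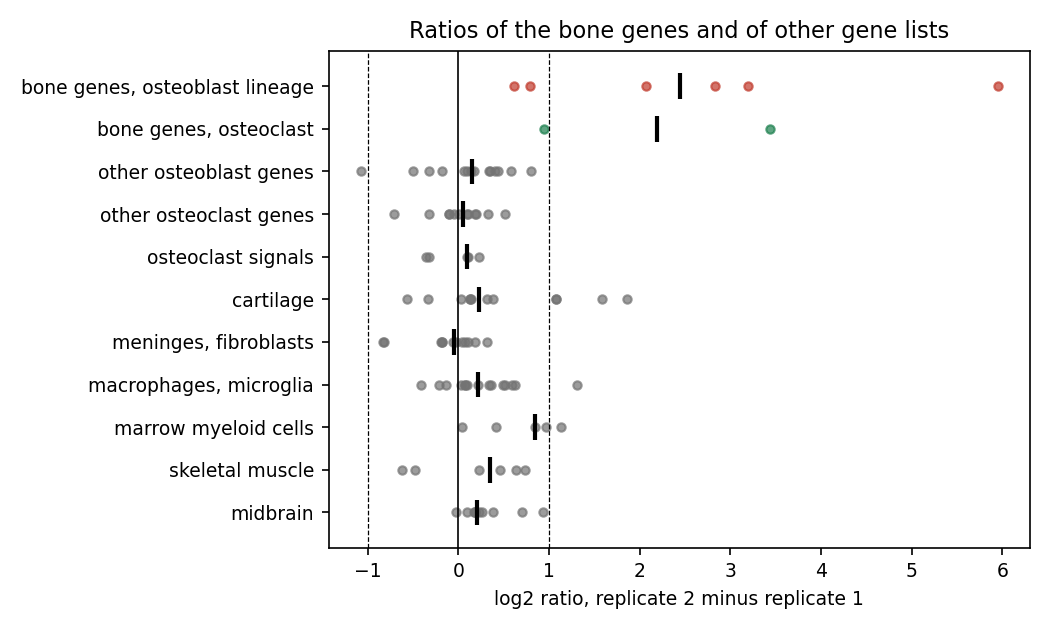
Log2 ratios between pools (replicate 2 minus replicate 1) of the genes that passed the minimum of 10 in the bone genes and in lists of related and neighbouring cells; points are genes, black bars are list medians and dashed lines are 2-fold. The bone genes were chosen on this ratio; the medians of the other lists lie between log2 -0.04 and 0.84.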

How the data were processed

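Per the labels, total RNA of embryonic midbrain was sequenced in 2 libraries, each a pool of embryos. Per the deposited readme, the values refer to mm10 with GENCODE M4 genes and spike-ins; the sources used here do not name the aligner, the quantifier or the use of strand. Per the file headers, each gene and transcript has a deposited expected count, TPM, FPKM and posterior means, and each transcript an isoform percent. The deposited expected count is an unnormalized read estimate whose totals differ between libraries; deposited TPM and FPKM are relative to length and library, as these units are defined, and the deposited isoform percent is a share of the TPM of the gene. Credibility bounds of TPM are deposited with no stated level.

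Symbols and coordinates came from GENCODE M21 (GRCm38, the assembly of mm10). Ratios used expected counts of Ensembl genes with 0.5 added, scaled by TMM in edgeR 4.0.16 on rounded counts, where the mean over libraries was 10 or more; 2-fold marks a call. Intervals of ratios are exact binomial (Clopper-Pearson) at 95% on rounded counts. They and the floor of 3 counts cover the counting error of reads alone, because each pool has 1 library. No molecular identifiers are described and such reads are no independent molecules, so the intervals can be too narrow even for counting error. The ratio was tested on simulated data. Alternatives used size factors of DESeq2 1.42.0, spike-in totals, total counts, TPM, posterior means, 1 added, and other count minimums. Python 3.11.15 and R 4.3.3 were used.

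The bone genes and the other lists were chosen with earlier results of these data known. Besides the bone genes, the text names the 4 genes of highest mean TPM per list, members past 2-fold, and the 12 highest protein-coding ratios. Other genes were named after their values were seen, as the text says. So were Otx2, Pax7, Th, Dspp, Mepe, Bglap3, Elane, Mpo, Camp, Comp and Hapln1. With 1 group of 2 libraries, no test between conditions can be had.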

Additional observations from a re-analysis of the deposited data

How the results depend on the processing

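All 60 ratios of single bone genes computed under the 8 alternatives were above 0. This gives no support, because the genes were picked on this ratio. Other count minimums left each ratio as it was, and size factors, spike-in totals and total counts shifted all ratios alike. Scaling by spike-in totals lowered each by the shift of all genes, so that the osteoblast median was log2 1.85, Ctsk 0.35 and Sp7 0.02; relative to the median of all genes the osteoblast median stayed at 2.44. At a mean expected count of at least 50, where 4 of the 10 genes were left, the osteoblast median was 3.20, the osteoclast value was that of Ctsk alone, 0.95, and 3 genes were past 2-fold; fewer genes enter by construction. Over all genes that minimum left 51 higher and 42 lower, and no minimum gave 2482 higher and 2276 lower, against 261 and 236. Of 29 recomputed summary values, 24 stayed within the bounds set for them. For a list median these were the medians of the lower and upper interval ends of its genes, which are not the counting error of a median. For counts they were 1.5 times either way. The count of genes past 2-fold was 7 with no minimum. The number of bone genes at 1 TPM or more was 7 without replicate 1 and 2 without replicate 2, and 3 with posterior mean TPM, where Runx2 is added. No ratio can be had with a replicate left out. No paired analysis was possible because the labels give 1 group. Depth limits Runx2, Sp7 and the osteocalcin genes, which rest on at most 30 expected counts per library.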
